A study of Mus musculus with 24 samples.

Results

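The regions described here are 5565 bins of 1 kb on mouse chromosomes 1 to 19 that were bound by KDM6A and carried H3K4me2 away from gene ends in small cell lung cancer lines with intact Kdm6a. A bin counted as marked where the peaks of a library, merged, covered at least 50% of it. A member bin was marked by KDM6A and by H3K4me2 in both control lines and by H3K27me3 in neither, and lay more than 2.5 kb from both ends of every protein-coding gene. Members were 34.5% of the 16150 bins bound by KDM6A in both control lines and 8.42% of the 66086 bins with H3K4me2 in both, out of 2460641 bins in all. Adjacent members formed 4514 sites, of which 3705 were a single bin and 637 were 2 kb long, and the longest reached 7 kb.

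All 4 lines were early-passage cultures grown from mouse tumours of the RPP model, in which loss of Rb1, Trp53 and Rbl2 drives small cell lung cancer. The mutant lines 236L and 236R came from tumours given a guide RNA against Kdm6a, and the control lines 159-1 and 1014 from tumours given a control guide, so the RPP background is common to both groups. Chromatin immunoprecipitation with sequencing (ChIP-seq) was done for H3K4me1, H3K4me2 and H3K27me3 in every line and for KDM6A in the control lines only, on cells collected 24 h after plating and without treatment. The KDM6A libraries and their inputs are labelled with 2 mM DSG, a cross-linker, and the histone libraries are not, so the preparations differed. Each line is 1 sample of its group, and no label states whether the mutant lines stem from different mice, so p-values measure only the spread between these samples, which may be technical. The labels name a set of input libraries for H3K4me2 and H3K27me3. Another set, called InputB, has no mark in its name, and that it served H3K4me1 is assumed. Both genotypes are in each of these sets. The titles of the mutant H3K4me2 and H3K27me3 inputs name the control guide. Their source names give the Kdm6a guide, which was followed.

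KDM6A, also called UTX, removes methyl groups from lysine 27 of histone H3 and is a subunit of the MLL3 and MLL4 complexes, which place mono- and dimethylation on lysine 4 of H3. H3K4me1 is typical of enhancers, H3K4me2 is found at both enhancers and promoters, and H3K27me3 is the mark of Polycomb repression. In neuroendocrine lung tumours such sites are studied for their link to lineage genes, and the series title names plasticity between subtypes as its subject.

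A few of these regions contain annotated short RNAs or transcript starts, whose RefSeq sequences (GRCm38.p6, the assembly also called mm10) are shown as fixed points for the states described further on. The first 5 are mature miRNAs whose hairpins lay inside member bins, written with the seed, bases 2 to 8, in capitals. miR-200b, known for keeping cells epithelial by repressing Zeb1 and Zeb2, stands for a bin that lost both H3K4 marks in 236L. let-7i, of the let-7 family of growth-restraining miRNAs, stands for a bin with H3K4me2 in all 4 lines and H3K4me1 in none. miR-1190 stands for a bin without H3K4me2 in either mutant line.
mmu-miR-200b-3p: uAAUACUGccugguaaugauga
mmu-miR-200b-5p: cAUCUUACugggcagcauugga
mmu-let-7i-5p: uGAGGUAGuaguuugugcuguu
mmu-let-7i-3p: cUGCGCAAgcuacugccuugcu
mmu-miR-1190: uCAGCUGAgguuccccucuguc
The Mir200b arms are at chr4:156055685-156055706 and chr4:156055721-156055742 on the minus strand, in a bin 4.184 kb from the nearest end of a protein-coding gene. In total 12 of the 919 hairpins in the table fell in member bins, with 20 mature sequences and 20 different seeds, so no seed was shared. H3K4me2 was marked at 7 of these 12 hairpins in 236L and at 10 in 236R, against all 12 in both control lines by the rule. Among all members it was marked at 46.6% in 236L and 76.2% in 236R, so the hairpins did not fall below the members as a whole. H3K4me1 was marked at 5 hairpins in 236L and 7 in 236R, against 7 in 159-1 and 8 in 1014. The shares of all members with H3K4me1 were 29.1% in 236L and 78.2% in 236R, against 73.9% in 159-1 and 72.8% in 1014.

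The next 4 are windows around internal or alternative transcript starts, from 250 bases before to 50 after the start, in bins that the gene-end rule treats as distal. They are shown because such bins form a distinct class below. All 4 bins had H3K4me2 in every line. Capitals mark CAGCTG, an E-box, the kind of sequence that basic helix-loop-helix factors bind.
Gse1: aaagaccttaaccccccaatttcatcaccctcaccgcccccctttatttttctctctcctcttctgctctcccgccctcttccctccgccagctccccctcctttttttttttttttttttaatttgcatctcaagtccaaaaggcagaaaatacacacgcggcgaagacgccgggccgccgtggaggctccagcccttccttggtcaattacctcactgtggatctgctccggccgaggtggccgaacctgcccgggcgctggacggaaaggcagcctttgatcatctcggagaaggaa
Ddc: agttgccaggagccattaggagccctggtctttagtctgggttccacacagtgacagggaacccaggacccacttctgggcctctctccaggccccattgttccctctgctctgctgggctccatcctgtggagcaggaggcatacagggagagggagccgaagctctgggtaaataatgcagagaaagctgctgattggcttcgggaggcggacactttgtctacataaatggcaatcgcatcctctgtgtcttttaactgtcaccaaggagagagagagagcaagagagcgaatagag
Cbx7: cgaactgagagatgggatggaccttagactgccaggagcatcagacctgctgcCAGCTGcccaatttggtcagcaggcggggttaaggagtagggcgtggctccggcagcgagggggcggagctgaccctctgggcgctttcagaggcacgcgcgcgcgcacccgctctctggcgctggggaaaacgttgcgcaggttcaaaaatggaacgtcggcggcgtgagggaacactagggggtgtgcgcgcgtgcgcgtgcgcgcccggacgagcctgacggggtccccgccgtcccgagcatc
Ddr1: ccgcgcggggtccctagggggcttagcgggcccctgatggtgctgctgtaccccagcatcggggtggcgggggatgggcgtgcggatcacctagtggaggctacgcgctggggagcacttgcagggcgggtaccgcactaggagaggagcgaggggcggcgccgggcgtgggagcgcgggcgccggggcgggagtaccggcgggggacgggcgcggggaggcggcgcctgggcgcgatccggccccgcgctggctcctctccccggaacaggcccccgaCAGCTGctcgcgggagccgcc
The Gse1 window is chr8:120488616-120488915 on the plus strand, and the windows of Ddc (chr11:11890359-11890658), Cbx7 (chr15:79932597-79932896) and Ddr1 (chr17:35700541-35700840) are on the minus strand. Ddc encodes the decarboxylase of dopamine and serotonin synthesis, Cbx7 a chromodomain subunit of Polycomb complex PRC1, and Ddr1 a collagen-binding receptor kinase. H3K4me1 was marked in no line at the Gse1 and Ddc windows, in 236L alone at Cbx7, and in both mutant lines but neither control line at Ddr1, where 236L also had H3K27me3.

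Line 236L stood apart from the other 3 lines before any member was considered. H3K4me2 at the gene ends of 7 macrophage markers summed to 36.9 kb in 236L, with all 7 at 1 kb or more, against 4.72 kb in 236R, 4.73 kb in 159-1 and 5.34 kb in 1014, with 2 of 7. Ptprc, Itgam and Adgre1 were at 0 outside 236L. The 7 neuroendocrine markers tested, Insm1 among them, were marked in every line, but summed to 28.9 kb in 236L, against 44.8 kb in 236R, 45.1 kb in 159-1 and 48.1 kb in 1014. In the remaining lists the sums of both mutant lines lay on the same side of both control lines. Markers of fibroblasts and endothelium summed to 10.4 kb in 236L and 10.9 kb in 236R, against 5.76 kb in 159-1 and 6.57 kb in 1014, with Pecam1 at 0 in all 4 lines. Markers of lung epithelium summed to 7.61 kb in 236L and 8.23 kb in 236R, against 13.1 kb in 159-1 and 9.06 kb in 1014. T and B cell markers summed to 4.80 kb in 236L and 5.65 kb in 236R, against 6.73 kb in 159-1 and 5.74 kb in 1014. Single markers did not all follow the sums. Cdh5 was at 0 in 236R, against 0.769 kb in 159-1 and 0.696 kb in 1014. Scgb1a1 was at 1.22 kb in 236L and 1.16 kb in 236R, against 0.714 kb in 159-1 and 0.493 kb in 1014. The H3K27me3 list of 236L was also the shortest, at 13.6 Mb, against 29.4 Mb in 236R, 45.3 Mb in 159-1 and 110 Mb in 1014, and 39.6% of its bins carried H3K4me2 in the same line, against 11.8% in 236R, 5.40% in 159-1 and 4.49% in 1014. Its H3K4me1 list covered 118 Mb, which lies between those of 236R (108 Mb) and 1014 (134 Mb). The part these differences have in the results below was not tested, and the main shares are given per line. No read counts are in the lists, so depth is unknown, and a site without a peak may be a site below the detection of that library. Among the control lists, the H3K4me2 files named for one line carry the sample label of the other. The labels were followed, and the rule requires both lists, so the members do not depend on this choice. The H3K4me2 values given for 159-1 and 1014 singly do depend on it. So do the shares of their H3K27me3 bins with H3K4me2 in the same line.

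H3K4me2, the mark that defined these sites in control cells, was missing from many of them in the mutant lines, and far more often in 236L than in 236R. It was marked at 2596 of the 5565 members in 236L (46.6%) and at 4243 in 236R (76.2%), a mean of 61.4% ± 20.9 (SD, n = 2). Because the rule fixed the control lines at 100%, the other lines could only equal or fall below them, and no test against the controls was made. The H3K4me2 lists of the mutant lines were also shorter, at 74.2 Mb in 236L and 71.9 Mb in 236R, against 83.6 Mb in 159-1 and 85.9 Mb in 1014. With lists trimmed to equal length within each mark, the share in 236R was 81.5%. In 236L no alternative that kept all lines gave a share above 52.6%. Both mutant lines kept the mark at 2503 members (45.0%), 236R alone at 1740 (31.3%), 236L alone at 93 (1.67%) and neither at 1229 (22.1%). Over all bins with H3K4me2 in both control lines, 19.6% were marked in neither mutant line and 59.4% in both. The share of members without the mark in either mutant line was close to the background, and the share kept in both was below it.

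Distal H3K4me2 bins without KDM6A, chosen by the same control lists, kept the mark less often than the KDM6A-bound ones. Of 18842 such bins, 33.0% were marked in 236L and 55.0% in 236R, so the members led by 13.6 percentage points in 236L and 21.2 in 236R. KDM6A-bound H3K4me2 bins at gene ends kept it more often, with 94.7% of 8598 bins in 236L and 97.7% in 236R. Both mutant lines showed this order of the 3 sets. The control peaks of the sets differed in strength, however: the median fold rank within the H3K4me2 control lists was 72.7% for members, 61.8% for unbound distal bins and 85.7% for bound gene ends.

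**Figure D1:**
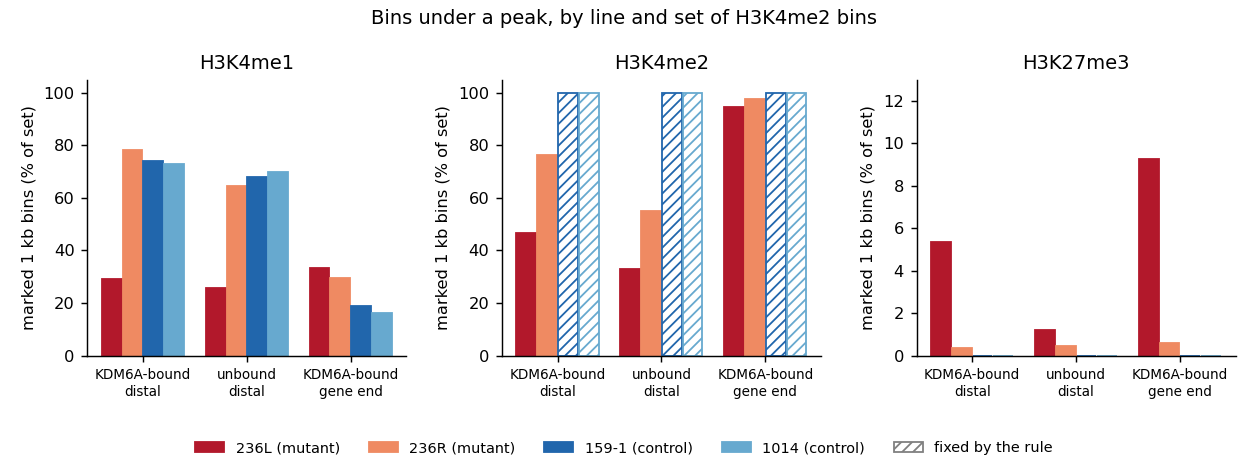
Share of 1 kb bins marked by H3K4me1, H3K4me2 and H3K27me3 (y axes, percent of the set; the H3K27me3 axis is shorter) in KDM6A-bound distal, unbound distal and KDM6A-bound gene-end bins; each bar is 1 line and hatched outlines are values fixed by the rule. H3K4me1 at KDM6A-bound distal bins stood at 29.1% in 236L and between 72.8% and 78.2% in the other 3 lines.

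H3K4me2 in the mutant lines varied widely with peak strength among the members themselves. Bins were split into 4 classes by the rank of their H3K4me2 peak in the control lists, with limits set over members and unbound distal bins together. In the lowest class 5.96% of members kept H3K4me2 in 236L and 29.9% in 236R, and in the highest class 83.5% did in 236L and 95.6% in 236R. Members marked in neither mutant line made up 67.01% of the lowest class, 39.1% of the second, 13.5% of the third and 3.27% of the highest. Within classes the lead of bound over unbound bins held in both mutant lines only at the top, where it was 19.2 points in 236L and 16.2 in 236R. In the 3 lower classes, from the lowest up, the difference was -5.57, -5.32 and -1.98 points in 236L and 0.888, 7.19 and 17.1 points in 236R. Averaged over the classes and both lines the lead was 5.97 points, against 17.4 points without the split. Classes by the rank of the KDM6A peak differed less, but they were set over members alone, all of them bound by the rule. The 2 splits are therefore not alike. From the lowest to the highest KDM6A class, H3K4me2 was marked at 44.4%, 48.6%, 48.5% and 45.1% of members in 236L. In 236R it was marked at 70.2%, 75.5%, 79.4% and 79.9%.

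**Figure D2:**
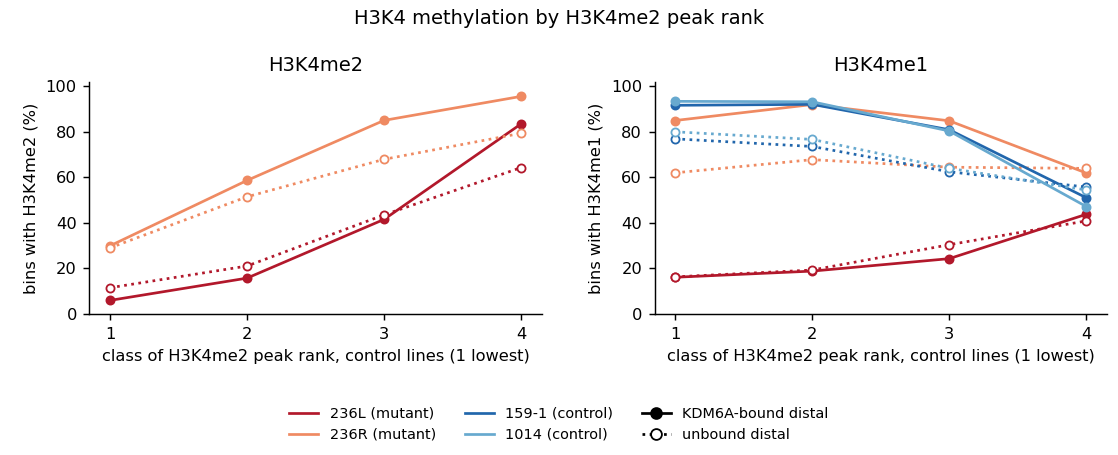
Share of bins with H3K4me2 (left, mutant lines) and H3K4me1 (right, all lines) by class of H3K4me2 peak rank in the control lists (x axis, 1 lowest); filled points and solid lines are KDM6A-bound distal bins, open points and dotted lines unbound distal bins. H3K4me2 in 236R climbed with rank to 95.6% of members, while H3K4me1 in 1014 was lowest in the top class, at 47.2%.

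H3K4me1, which the rule did not use, was retained at these sites in 236R and largely missing in 236L. It was marked at 29.1% of members in 236L and 78.2% in 236R, against 73.9% in 159-1 and 72.8% in 1014. The 2 mutant lines lay on opposite sides of the control lines, so the groups overlapped. The means were 53.7% ± 34.7 in mutant and 73.4% ± 0.775 in control lines (SD, n = 2 each), and the difference of -19.7 points was far inside the spread between the mutant lines (exact two-sided permutation p = 1). With 2 lines against 2 there are 3 splits, and the smallest p the design can give is 0.33. Without 236L the difference was 4.79 points in the other direction, and without 236R it was -44.2 points.

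At the 3818 members with H3K4me1 in both control lines, 982 (25.7%) had it in both mutant lines, 2640 (69.1%) in 236R alone, 40 in 236L alone and 156 (4.09%) in neither. Among all bins with H3K4me1 in both control lines, 29.5% were marked in neither mutant line and 19.8% in both. That background holds many bins without H3K4me2. Of the 30473 bins with H3K4me1 and H3K4me2 in both control lines, 35.4% had H3K4me1 in both mutant lines and 9.68% in neither, so on this closer background the members' shares were lower in both classes. Of the unbound distal bins among these, 22.8% had it in both mutant lines and 16.2% in neither. In the opposite direction, 130 of the 1214 members with H3K4me1 in neither control line (10.7%) had it in both mutant lines, against 11.7% of all bins with H3K4me2 but not H3K4me1 in the control lines, so the members' share was near the background.

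Counted over all ranks, KDM6A-bound bins had H3K4me1 more often than unbound distal bins in every line. Unbound bins were marked at 25.8% in 236L and 64.5% in 236R, against 68.1% in 159-1 and 69.8% in 1014. The lead of the members was 3.38 points in 236L and 13.6 in 236R, against 5.87 in 159-1 and 2.999 in 1014, so the mutant lines lay on both sides of 159-1. The lead was 4.08 points larger in mutant than in control lines on average, which the exact two-sided permutation test over the 4 lines did not separate (p = 0.667). Within the 3 lower classes of H3K4me2 rank the lead was 20.4 to 24.2 points in 236R, against 14.7 to 18.5 in 159-1 and 13.4 to 16.5 in 1014, but in 236L it was -0.176, -0.471 and -6.13 points. In the top class it was 2.91 points in 236L and -2.03 in 236R, against -4.69 in 159-1 and -7.26 in 1014. Position mattered as well. Within 2.5 kb of a RefSeq start the members had H3K4me1 less often than unbound bins in every line, by -0.64 points in 236L and -7.95 in 236R, against -9.62 in 159-1 and -11.9 in 1014, and farther away the lead was 3.24 points in 236L and 19.8 in 236R, against 11.5 in 159-1 and 8.43 in 1014. The difference between the groups in the lead over all positions changed sign without 236R (-1.06 points), with peak lists trimmed to equal length (-2.03) and with stricter peaks (-0.0271). Bound gene ends had the mark at 33.4% in 236L and 29.5% in 236R, against 18.7% in 159-1 and 16.4% in 1014. There the mutant lines were both above the control lines, unlike at the distal members, and the member-minus-gene-end difference was -4.22 points in 236L and 48.7 in 236R, against 55.2 in 159-1 and 56.4 in 1014. On average it was -33.6 points from the control mean in mutant lines (exact two-sided permutation p = 0.33, the smallest possible), but -7.098 points without 236L and -60.04 without 236R, so its size rested on 236L.

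The mutant lines differed in the H3K4me1 found at members without H3K4me2. Of the members without H3K4me2 in 236R, 83.8% still had H3K4me1, whereas in 236L 12.1% of such members did. In the unbound distal bins without H3K4me2 these shares were 56.5% in 236R and 12.95% in 236L. Counted over all members, both H3K4 marks stood at 1263 bins in 236L (22.7%), H3K4me2 alone at 1333 (24.0%), H3K4me1 alone at 359 (6.45%) and neither at 2610 (46.9%). The counts in 236R were 3243 with both (58.3%), 1000 with H3K4me2 alone (17.97%), 1108 with H3K4me1 alone (19.9%) and 214 with neither (3.85%). Members without either mark were therefore common in 236L and few in 236R. No label names an input for H3K4me1, and the difference between the lines rests on 1 library of each mark.

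**Figure D3:**
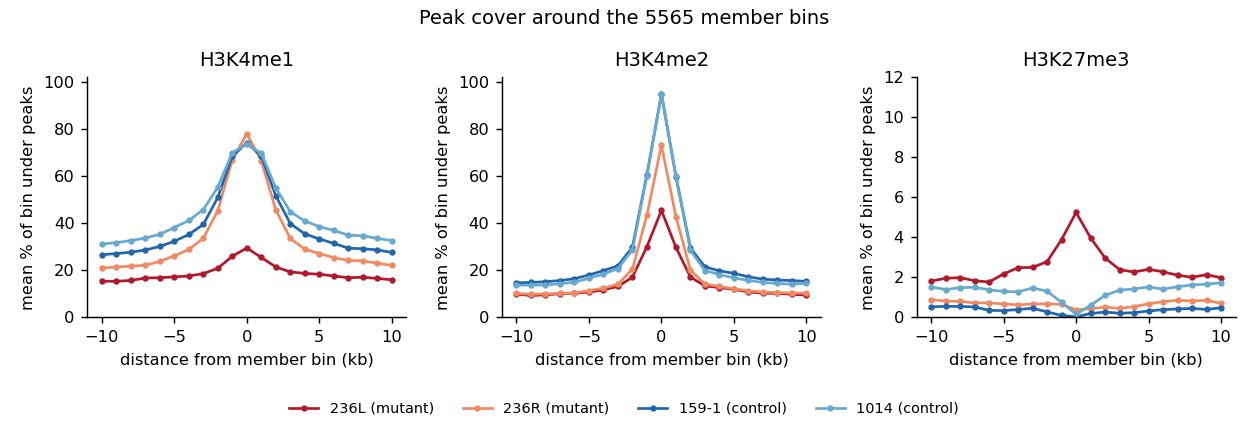
Mean percent of a 1 kb bin covered by peaks (y axes), for each histone mark and line. The x axis runs from 10 kb on one side to 10 kb on the other side of member bins. The centre of the H3K4me2 and H3K27me3 panels is set by the rule in the control lines. The rule also bears on control cover in the flanks, because selected peaks can extend there. H3K4me1 in 236L peaked at 29.5% at the centre, below the level of the other 3 lines 2 kb away.

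The same lines differed over the surrounding 10 kb. At 2 kb downstream in coordinate order the mean H3K4me1 cover was 21.4% in 236L and 45.6% in 236R, against 51.6% in 159-1 and 55.0% in 1014. At 10 kb it was 16.0% in 236L and 22.1% in 236R, against 27.6% in 159-1 and 32.6% in 1014, so both mutant lines were below both control lines in the flanks, although at the centre 236R was the highest of the 4. Mean H3K4me2 cover at 2 kb was 17.1% in 236L and 20.1% in 236R, against 29.5% in 159-1 and 28.5% in 1014. The control H3K4me2 peaks that the rule selects can extend into the flanks, so this difference is not independent of the rule.

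H3K27me3, absent from members in the control lines by the rule, appeared at few of them in mutant lines. It was marked at 299 members in 236L (5.37%), 19 in 236R (0.341%) and 11 in both. Over all bins with H3K4me2 in both and H3K27me3 in neither control line, the mark was present at 3.74% in 236L, 0.49% in 236R and 0.2% in both, so the members were near the background in 236R and in the overlap. Unbound distal bins had it at 1.22% in 236L and 0.435% in 236R, and bound gene ends at 9.26% in 236L and 0.616% in 236R. In 236L, 79.3% of the members with H3K27me3 also had H3K4me2 in the same line, against 44.8% of the other members there. The H3K27me3 list of 236L overlapped H3K4me2 throughout the genome, as given above, and whether that overlap reflects both marks on the same chromatin was not tested. Of the members in the top class of H3K4me2 rank, 12.1% had H3K27me3 in 236L, against 1.45% in the lowest class.

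Nearness to annotated transcript starts split the members into unlike classes. The rule measured distance to the ends of genes, so starts of alternative transcripts inside genes and of long non-coding RNAs were not kept out. Of the members, 1160 lay within 2.5 kb of a RefSeq start, 556 of them with a start inside the bin, 4234 (76.1%) lay farther away, and the 171 on chromosome 18 could not be placed because the table of starts used here has none there. Among members far from starts, H3K4me1 was marked at 26.6% in 236L and 84.98% in 236R, against 82.5% in 159-1 and 81.6% in 1014. With a start in the bin, the shares were 34.0% in 236L and 40.1% in 236R, against 30.0% in 159-1 and 29.0% in 1014, so both mutant lines were above both control lines (37.1% ± 4.32 against 29.5% ± 0.763, SD, n = 2 each; exact two-sided permutation p = 0.33, the smallest possible). This was no larger than the background: over all 11713 bins with H3K4me2 in both control lines and a start inside, the mutant mean was 32.7% and the control mean 22.3%, a difference of 10.4 points against 7.55 at the members. H3K4me2 was kept at 37.3% of the far members in 236L and 71.4% in 236R, and at 87.6% of those with a start in 236L and 95.7% in 236R. In 236R, 159-1 and 1014 far members had H3K4me1 more often than start-bearing members, and in 236L the order was the other way round. Among far bins alone the members still kept H3K4me2 more often than unbound distal bins, by 9.47 points in 236L and 20.7 points in 236R.

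**Figure D4:**
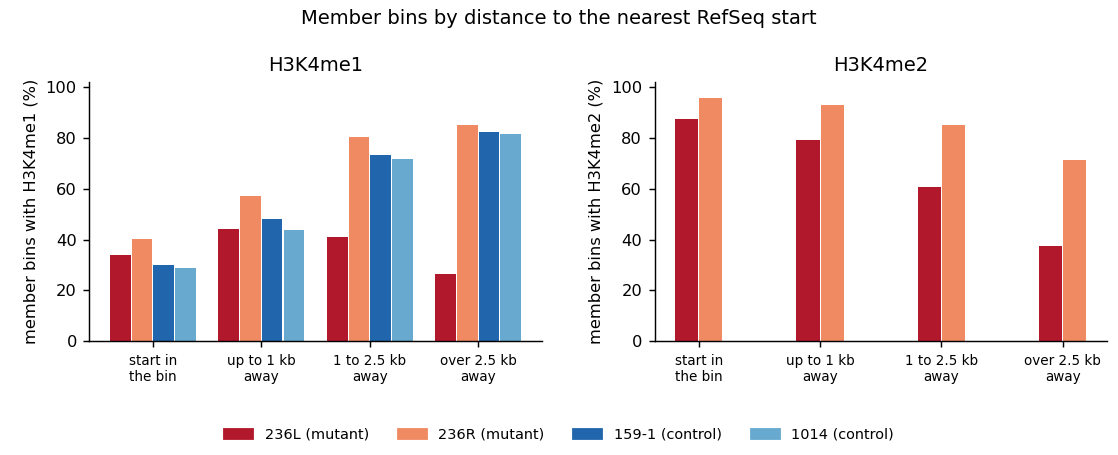
Share of member bins with H3K4me1 (left, 4 lines) and H3K4me2 (right, mutant lines) by distance to the nearest RefSeq transcript start (x axis, classes of 556, 391, 213 and 4234 bins); each bar is 1 line. In 236R, H3K4me1 went up with distance and H3K4me2 down, while 236L had 34.0% to 44.0% H3K4me1 near starts and 26.6% far from them.

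Base composition at these starts was nearer to that of bound gene ends than to that of unbound distal bins. With 1 start window taken per bin, 460 windows lay inside members, 287 of protein-coding genes and 173 of long non-coding RNAs. Their median GC content was 63.7% and the median ratio of observed to expected CpG was 0.727. Windows in unbound distal bins had 52.0% and 0.369, windows in bound gene-end bins 66.0% and 0.856, and the windows of all RefSeq starts 53.0% and 0.389. CAGCTG, which reads the same on both strands, was in 15.7% of member windows, 23.9% of unbound distal windows, 14.2% of bound gene-end windows and 16.3% of all windows.

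Position along genes and chromosomes changed the levels, and 236L had the lowest H3K4me1 share in each class of gene body and on each chromosome. Members inside gene bodies numbered 3358 and those between genes 2207. H3K4me1 was marked at 31.2% of the first in 236L and 74.8% in 236R, against 71.7% in 159-1 and 70.8% in 1014, and at 25.96% of those between genes in 236L and 83.4% in 236R, against 77.4% in 159-1 and 76.0% in 1014. H3K4me2 was kept at 60.01% of members 2.5 to 10 kb from a gene end in 236L and 80.6% in 236R, and at 26.8% and 68.8% in those lines for members over 100 kb away. Sites of 3 kb or more kept it at 63.0% of their bins in 236L and 81.4% in 236R, against 41.1% and 73.6% for single bins. Per chromosome, H3K4me1 at members ranged between 15.6% and 39.8% in 236L and between 56.1% and 85.6% in 236R, against 41.4% to 84.5% in 159-1 and 56.7% to 80.6% in 1014. The lowest value of 159-1 was on chromosome 19, where the other lines had 33.3% (236L), 75.9% (236R) and 62.1% (1014). In the unbound distal bins of chromosome 19 the share in 159-1 was likewise its lowest, at 39.4%. Chromosome 8 had the lowest H3K4me2 share of 236R, 65.1% of members.

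Members just inside the limits of the rule were much like bins just outside them. Of the 1556 members whose least covered list reached 50 to 60%, H3K4me2 was kept at 36.2% in 236L and 66.6% in 236R, and of the 1866 bins at 40 to 50% it was marked at 31.9% and 59.6% in those lines. Members 2.5 to 3.5 kb from a gene end, 380 in number, kept it at 70.3% in 236L and 87.4% in 236R, and the 605 bins at 1.5 to 2.5 kb at 77.2% and 90.4%.

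Each member was assigned to the nearest protein-coding gene, or to the genes containing it, which says nothing of what it regulates. The members fell to 2770 of 20665 genes (13.4%), 1615 of them with 1 bin and 207 with 5 or more. Gse1, which encodes a subunit of a histone deacetylase and demethylase complex, had the most, with 48 bins inside the gene. They kept H3K4me2 at 27 bins in 236L and 35 in 236R, and had H3K4me1 at 17 in 236L and 41 in 236R, against 41 in 159-1 and 42 in 1014. Ptpru, a receptor tyrosine phosphatase gene, was nearest to 22 bins, most of them far outside it. These kept H3K4me2 at 1 bin in 236L and 7 in 236R, whereas H3K4me1 was at 0 in 236L and at all 22 in 236R, 159-1 and 1014. The same pattern of H3K4me1 held for Msi2, the gene of an RNA-binding protein of stem and progenitor cells, with 18 bins. H3K4me1 was at 0 of them in 236L and 17 in 236R, against 18 in both control lines, and H3K4me2 at 5 in 236L and 12 in 236R. Ppara, the gene of a lipid-sensing nuclear receptor, differed from these, with H3K4me2 at all 20 of its bins in both mutant lines and H3K4me1 at 9 in 236L and 10 in 236R, against 10 in 159-1 and 9 in 1014.

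Camta1, a calcium-responsive transcription factor gene, had H3K4me1 at 2 of 16 bins in 236L and 14 in 236R, against 14 in 159-1 and 12 in 1014. Zmiz1 (16 bins), Casz1 (15), 2900026A02Rik (16) and Aopep (18) were also among the 10 genes with the most members. Aopep, an aminopeptidase gene, was the one with the most bins gaining H3K4me1: 11 of 18 in 236L and 10 in 236R, against 6 in 159-1 and 4 in 1014, with 4 bins marked in both mutant and neither control line. The next genes by that count had 2 such bins each. Klf9, a glucocorticoid-induced zinc finger gene, Ncoa3, a nuclear receptor coactivator gene, Ldb1, a LIM domain cofactor gene, and Msi1, a relative of Msi2, were among them, and all member bins of these 4 genes had H3K4me2 in both mutant lines. The same held for Ddr1, Ptpn3 and Eapp. It did not hold for Mical3, with 2 of 4 bins, or Zfp516, with 2 of 3.

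**Figure D5:**
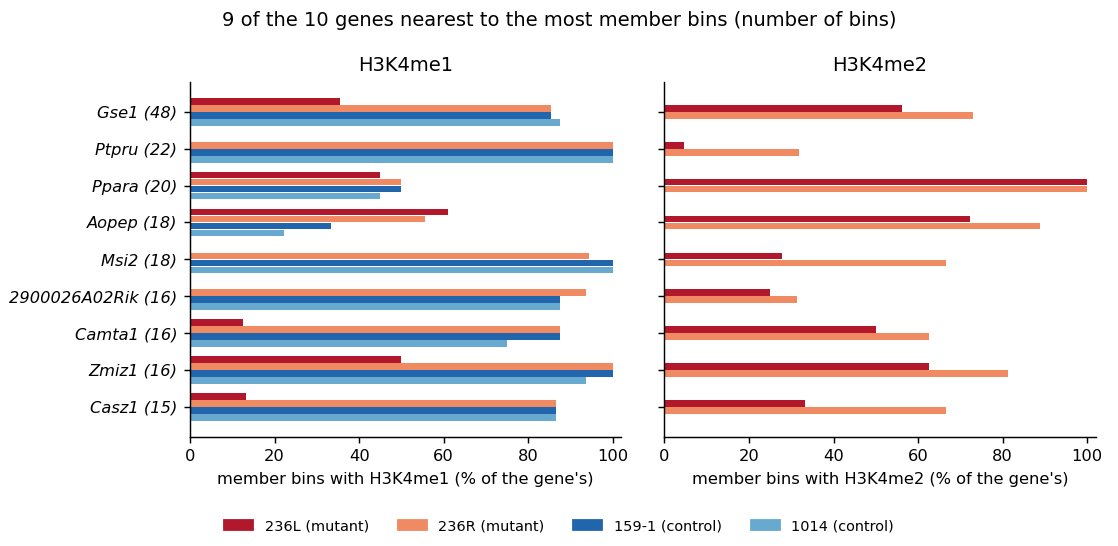
Share of each gene's member bins with H3K4me1 (left, 4 lines) and H3K4me2 (right, mutant lines) for 9 of the 10 genes assigned the most members, with the number of bins in brackets; each bar is 1 line. H3K4me1 in 236L was at 0 for Ptpru, Msi2 and 2900026A02Rik and at 9 of 20 bins for Ppara.

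The counts for gene lists are to be read against all members, of which 46.6% kept H3K4me2 in 236L and 76.2% in 236R. H3K4me1 was at 29.1% of all members in 236L and 78.2% in 236R, against 73.9% in 159-1 and 72.8% in 1014. Of all protein-coding genes, 13.4% had a member. Among lineage genes, the neuroendocrine list had members at 10 of 18 genes, with 37 bins. H3K4me2 was kept at 16 of these in 236L (43.2%, near the share of all members) and 36 in 236R (97.3%), and H3K4me1 was at 2 in 236L and 26 in 236R, against 19 in 159-1 and 22 in 1014. Foxa2, a pioneer factor of endoderm and neuroendocrine cells, held 14 of them, with H3K4me2 at 4 in 236L and 13 in 236R. H3K4me1 at Foxa2 was at 1 bin in 236L and 12 in 236R, against 10 in both control lines. Nkx2-1, the lung lineage factor, had 8 bins with H3K4me2 kept at 6 in 236L and 8 in 236R, and little H3K4me1: 0 in 236L and 3 in 236R, against 1 in each control line. Foxa1 had 3 bins, all with H3K27me3 in 236L and none in 236R. The 2 bins with H3K4me1 in 236L stand beside that line's lower neuroendocrine and higher macrophage marker cover, whose part was not tested.

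Regulators of enhancer use and cell state in this cancer, a list of 18 genes with Msi2, Rbfox2, Sox11 and Tcf4, had members at 13, with 56 bins. H3K4me2 was kept at 26 of these in 236L (46.4%) and 42 in 236R (75%), close to the shares of all members. H3K4me1 there was at 10 bins in 236L and 44 in each of 236R, 159-1 and 1014. Genes of the NEUROD1 neuronal programme had members at 5 of 20, among them Myt1l with H3K4me2 at 0 of 4 bins in 236L and 3 in 236R. Of 23 genes for the non-neuroendocrine state, with Notch signalling and YAP, 7 had members. Of these, Tead1, a partner of YAP, kept H3K4me2 at 5 of 8 bins in 236L and all 8 in 236R, with H3K4me1 at 0 in 236L and 8 in 236R, against 7 in 159-1 and 6 in 1014. Hes1, a Notch target, kept H3K4me2 at 3 of 7 bins in 236L and 6 in 236R. Tuft cell genes around Pou2f3 had members at 2 of 13 and antigen presentation genes at 1 of 18. Lists of lung epithelium, macrophage and lymphocyte genes had 1 gene and 1 bin each, and in each of the 3 bins both H3K4 marks were absent in 236L and present in 236R, 159-1 and 1014. The fibroblast and endothelial list had 6 of 15 genes, with 7 of its 14 bins at Vwf.

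Some genes of the writer and eraser complexes had members, and these counts stand beside 13.4% of all protein-coding genes. In the list of MLL3, MLL4 and KDM6 complex genes, 4 of 15 had 8 bins in all, at Kdm6b, the gene of a related H3K27 demethylase (4 bins), Ash2l (2), Dpy30 (1) and Wdr5 (1), the last 3 being core subunits of H3K4 methyltransferases. All 8 kept H3K4me2 in both mutant lines, against 45.0% of all members. The Dpy30 and Wdr5 bins lay near a RefSeq start and those of Kdm6b and Ash2l did not. The mutant mean share with H3K4me2 was 86.25% at members within 2.5 kb of a start and 54.4% at those farther away. Polycomb genes had members at 3 of 17, with 13 bins. Cbx8, a PRC1 subunit, was nearest to 7 of them, which kept H3K4me2 in both mutant lines and had H3K27me3 at 5 bins in 236L and 0 in 236R. Jarid2, a cofactor of PRC2, had 5 bins and Cbx7 had 1. HOX genes, the classical Polycomb targets, had members at 2 of 39. The rule leaves out bins with H3K27me3 in a control line and bins near gene ends, and its part in this count was not tested. All 8 bins of Hoxb3 had H3K27me3 in 236L and 1 did in 236R, and H3K4me2 was kept at 4 in 236L and 8 in 236R. After Hoxb3, the genes with the most bins carrying H3K27me3 had all of them in 236L and 0 in 236R. Cbx8 and the homeobox gene Meis2 (5 of 9 bins) had 5 each. Tied at 4 bins were Sox1 (of 5) and Lmx1b (of 13), both transcription factor genes, Foxa2 (of 14), the netrin receptor genes Unc5a (of 6) and Unc5b (of 8), the BAH-domain gene Bahcc1 (of 8) and the actin bundling gene Espn (of 4).

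Single sites showed the range of states. The longest run, in Tnrc18 at chr5:142814001-142821000 (mm10), lay near a transcript start in all its 7 bins. It had H3K4me2 over its full 7 kb in all 4 lines and little H3K4me1, with 0.12 kb covered in 236L and 1.304 kb in 236R, against 0 in 159-1 and 0.025 kb in 1014. A site of the same length 11.088 kb from the end of Cbx8, at chr11:119052001-119059000, had 5.036 kb of H3K27me3 in 236L and 0 in 236R, against 0 in 159-1 and 0.029 kb in 1014, while H3K4me2 covered 6.76 kb or more in every line.

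The longest run without H3K4me2 in the mutant lines was a 4 kb intragenic site in Ralgps1 at chr2:33203001-33207000. H3K4me2 covered 0.492 kb of it in 236L and 0.459 kb in 236R, against 4 kb in both control lines. H3K4me1 was kept there, over 3.535 kb in 236L and 4 kb in 236R, against 4 kb in both control lines. A 3 kb site in Fhl2 at chr1:43151001-43154000 had lost H3K4me2 altogether in both mutant lines, and H3K4me1 covered 0 in 236L and 3 kb in 236R, 159-1 and 1014. Sites of the same length in Trim62 and 2900026A02Rik, and 1 that is 254.457 kb from Ptpru, had the state of Fhl2 for H3K4me1. The longest runs with H3K4me1 in both mutant and neither control line were short and differed in how much cover changed. The site 5.226 kb from Klf9 at chr19:23134001-23136000 had 2 kb of H3K4me1 in both mutant lines, against 0 in 159-1 and 0.292 kb in 1014. A 2 kb site in Msi1 had 1.974 kb in 236L and 2 kb in 236R, against 0.491 kb in 159-1 and 0.426 kb in 1014, and a 2 kb site in Zfp516 had 1.84 kb in 236L and 1.87 kb in 236R, against 0.245 kb in 159-1 and 0 in 1014. A 2 kb site in Ncoa3 had 1.429 kb in 236L and 1.274 kb in 236R, against 0.87 kb in 159-1 and 0.45 kb in 1014, so there the control lines already had partial cover below the 50% limit. The fifth, a 1 kb site in Speg, had 0.931 kb in 236L and 1 kb in 236R, against 0.248 kb in 159-1 and 0.315 kb in 1014.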

How the data were processed

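ChIP-seq peak lists of 14 libraries were used: 12 for 3 histone marks in 4 lines and 2 for KDM6A. The 10 input libraries of the 24 samples have no list here. The submitters' processing notes name Bowtie2 2.4.2, MACS3 3.0.0a7 and the mouse build mm10; a calling threshold and the handling of duplicates are not stated there or in the labels. Each list comes from 1 library, so replicates were not pooled. For each broad peak the authors deposited its position, a fold enrichment (a linear ratio), a −log10 p-value, a −log10 q-value and a display score. Folds were used only to rank peaks within a list, q-values only to filter, and scores not at all. No counts are given, so depth is unknown and no counting interval was made.

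Peaks were merged and laid over 1 kb bins of chromosomes 1 to 19. Gene ends came from the RefSeq table of GRCm38.p6, which gives no strand. Groups were taken from the sample labels. The lines are the replicates; bins are not, and shares were compared over lines by an exact two-sided permutation test. The members, gene lists and comparisons were chosen with earlier results of these data known. Named genes are the 10 with the most members (1 of them is not reported here), the 10 with the most bins lacking H3K4me2 in both mutant lines, the 10 with the most bins that gained H3K4me1, the 10 with the most H3K27me3 in a mutant line, and up to 4 of each of 13 lists; named sites are the 5 longest of each kind. The bin cover and member rule were checked against a base-by-base count on simulated peaks. Analyses used Python 3.11.15, numpy 2.4.6, pandas 2.3.3 and scipy 1.17.1. Alternatives were cover of 25% or 75%, peaks with −log10 q of at least 3, equal list lengths, no H3K27me3 base, distances of 1 and 10 kb, bins shifted by 500 bases, genes within 50 kb, peak rank classes and leaving out each line. Bin sequences are not shown because no genome was used here.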

Additional observations from a re-analysis of the deposited data

Results flagged for a closer look

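At the KDM6A-bound distal H3K4me2 bins the 2 mutant lines moved in opposite directions in H3K4me1. The difference from the mean of the control lines was -44.2 percentage points in line 236L and 4.79 points in line 236R. The control lines themselves were 1.10 points apart. Each mutant line is 1 sample, so the difference between them was not tested.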

How the results depend on the processing

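The number of members depended on the cover demanded of a bin, and the shares within them moved too: of the shares of members marked in single lines, 51 values left the exact binomial interval of the main share over bins and 45 did not. The 45 include settings without a mutant line, where the members are the same by the rule and no share could move. Bins are not replicates, so the interval served only as a yardstick. Apart from leaving out lines, H3K4me1 ran from 25.3% to 32.3% in 236L and 72.8% to 84.98% in 236R, against 65.2% to 83.1% in 159-1 and 63.9% to 83.2% in 1014. H3K4me2 ran from 37.3% to 52.6% in 236L and 71.4% to 81.5% in 236R, and H3K27me3 from 2.48% to 6.50% in 236L and 0.0295% to 0.4697% in 236R. With 25% cover there were 11284 members in 8439 sites at 4257 genes, with 75% cover 2485 in 2017 sites at 1475 genes, and with −log10 q of at least 3 there were 3386 in 2547 sites at 1816 genes. Members with H3K4me2 in neither mutant line numbered 2518, 541 and 740 under those 3 settings, and those with it in both 4836, 1150 and 1503. H3K4me1 in both control and neither mutant line was found at 425, 44 and 94, and in both mutant and neither control line at 250, 64 and 83. With equal list lengths the count of H3K4me1 lost was 99; over 1 kb from gene ends the count gained was 213; over 10 kb it was 76, and H3K4me2 was kept in both mutant lines at 1519. Genes within 50 kb of a member numbered 5215. Averaged over the 4 classes of peak rank, the lead of members over unbound bins in H3K4me2 was 5.97 points. The mutant-minus-control difference in the H3K4me1 lead reversed to -0.0271 with stricter peaks and to -2.03 with equal list lengths; the cause was not tested. Leaving out 1 line at a time gave 5565 to 10410 members and 4514 to 8067 sites at 2770 to 4151 genes, the largest without 1014. It gave a mutant H3K4me2 share of 46.6% to 76.2%, an H3K27me3 share of 0.341% to 5.37%, and a lead in H3K4me2 of 13.6 to 21.2 points. The H3K4me1 difference ran from -44.2 (without 236R) to 4.79 (without 236L, reversed), and the difference in its lead from -1.06 (without 236R, reversed) to 9.21. The counts ran from 1322 to 3072 for H3K4me2 in neither, 2596 to 4243 for both, 196 to 2796 for H3K4me1 lost and 302 to 392 for H3K4me1 gained, all of them partly because fewer lines had to meet the condition. An alternative chosen after seeing the data, also over 2.5 kb from every RefSeq start, left 1501 members with H3K4me2 in both mutant lines and 71 with H3K4me1 gained. Over all alternatives, the member counts of 38 of the genes named stayed within 1.5 times of the main count in 411 values and moved further in 121. The 411 include settings without a mutant line, which could not change a member count. No paired analysis was possible because the labels pair no mutant line with a control line. Depth limits all of this: without counts, a missing peak cannot be told apart from a peak below detection.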
